A study of Sus scrofa with 48 samples.

Results

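The genes studied here were 10 enzymes of branched-chain amino acid catabolism: BCAT1, BCAT2, BCKDHA, BCKDHB, DBT, IVD, MCCC1, MCCC2, HIBADH and ALDH6A1. They were chosen by symbol, and every probe of the porcine microarray that the scanner files named as a member was taken if the scanner flagged it well above background in 9 or more of the 12 pigs of any group. The files named 23 such probes, and 22 probes of 8 genes passed, out of 44356 probes and 11117 genes that passed on the whole array. All 22 had this flag in each of the 48 pigs. The single probe of BCAT1, O10620, did not pass (well above background on 1, 4, 2 and 1 of 12 arrays in the 4 groups), and no probe carried the name MCCC2.

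Gene expression was measured in dorsal subcutaneous adipose tissue (SCAT) of 48 Large White barrows, 1 pig per one-colour (Cy3) array. The pigs, aged 132 days, came from 2 lines under divergent selection on RFI (residual feed intake, actual minus predicted): low RFI (RFIneg), the more feed-efficient line, and high RFI (RFIpl). Each line had free access to HF, a diet high in fat and fiber, or to LF, a diet low in both and rich in starch, which gave 4 groups of 12 pigs. The comparisons asked whether diet, line or their interaction changed the genes.

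Leucine, isoleucine and valine are broken down in mitochondria. A transaminase (BCAT2 in mitochondria, BCAT1 in the cytosol) removes the amino group, and the branched-chain ketoacid dehydrogenase complex (BCKDHA and BCKDHB form E1, DBT is E2, DLD is E3) then commits the carbon skeleton to oxidation. The kinase BCKDK switches this complex off and the phosphatase PPM1K switches it on. After it, IVD and the carboxylase formed by MCCC1 and MCCC2 act on leucine carbon, HIBADH acts on valine carbon, and ALDH6A1 acts late in the valine route. Adipocytes are known to use these amino acids as a carbon source for acetyl-CoA.

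Between 62.2% and 81.9% of probes were well above background on an array, and no spot was saturated. Of the marker genes listed for adipocytes, 9 of 10 had a probe that passed, all except PLIN4. Of the skeletal muscle markers, 9 of 11 had one, so the samples also gave muscle signal. The 48 arrays lay on 6 slides that were scanned on 2 dates, 24 arrays per date with 6 of each group, so that diet and line were balanced over the dates.

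Several members are read by more than 1 probe, and the probes tell how independent these readings are. The sequences shown are the probes on which the IVD and HIBADH results turn and those that overlap. For IVD, the probe A_72_P713413 starts at base 585 of the listed pig mRNA and the other probes lie at bases 1087 and 1176 of a separately listed pig cDNA clone. No run longer than 7 bases was shared by any pair of these 3 probes. For the clone probes and for HIBADH, only the first 30 bases are shown.
IVD A_72_P713413: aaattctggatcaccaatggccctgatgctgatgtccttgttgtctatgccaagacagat
IVD A_72_P715033: tggtgtgtttcctatgtggaaaacaccatg
IVD A_72_P796509: ccttgcatgtacctttgcctgtacagcctg
HIBADH O10591: cttcaaaagaatgacatctttagaactatc
HIBADH A_72_P226822: gactctctctgcaaggcctttgtaactctg

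Both named HIBADH probes, O10591 and A_72_P051436, hold the same 60 bases, so they are 2 spots of 1 sequence and not 2 readings of the gene. The same holds for the BCKDHA probes A_72_P087911 and A_72_P571909. The BCKDHB probes A_72_P693282 and A_72_P635404 overlap by 55 of 60 bases, shown here in capitals.
BCKDHA A_72_P087911: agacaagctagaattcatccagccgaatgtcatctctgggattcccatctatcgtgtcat
BCKDHB A_72_P693282: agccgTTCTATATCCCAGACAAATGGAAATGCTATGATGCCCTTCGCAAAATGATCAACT
BCKDHB A_72_P635404: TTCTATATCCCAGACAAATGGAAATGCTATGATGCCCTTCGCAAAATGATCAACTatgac

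Values below are log2 of the background-subtracted signal minus the median of the array, and a difference of 1 is a 2-fold change. A probe was called differentially expressed when its raw p was under 0.01, its fold change over 1.1 and its Benjamini-Hochberg adjusted p under 0.08, in a limma fit of diet, line and interaction over all 44356 probes. Since probes differ in how well they bind, brightness served only to choose 1 probe per gene and is no measure of one gene's level against another's.

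IVD, the dehydrogenase of the leucine route, was the only member called for diet, and it was higher with HF. Of the 22 probes, 2 were called, both up-regulated and both of IVD, beside 13.1% of all probes called for diet (5.61% higher and 7.44% lower with HF). Of all probes called for diet, 57.0% were lower with HF, a share that fell to 32.8% when arrays were scaled to the 75th percentile. That scaling shifts the diet differences of all probes upward alike, so the IVD differences of 0.49 and 0.48 under it are no separate test. Taking the brightest probe per gene, 1 of 8 member genes was called, beside 12.6% of all genes. The median diet difference over the 8 genes was -0.09, beside -0.04 over all genes.

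Probe A_72_P796509 of IVD had a lowest, median and highest value of 2.43, 3.19 and 3.90 in the low RFI line on HF. The high RFI line on the same diet had 2.80, 3.06 and 3.59. With LF they were 1.83, 2.68 and 3.40 in the low RFI line and 2.15, 2.80 and 3.52 in the high RFI line. The groups overlapped, yet 23 of 24 HF pigs lay above the LF mean and 20 of 24 LF pigs lay below the HF mean. The mean was 3.16 ± 0.33 with HF and 2.70 ± 0.45 with LF (SD, n = 24 each). The difference was 0.45 ± 0.11 (SE, 95% interval 0.23 to 0.68), a 1.37-fold higher signal (limma, adjusted p = 0.0054).

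Probe A_72_P715033 of IVD gave nearly the same picture. Its lowest, median and highest values with HF were -0.49, 0.65 and 1.38 in the low RFI line and 0.10, 0.47 and 0.94 in the high RFI line. With LF they were -0.78, 0.10 and 0.89 in the low RFI line and -0.67, 0.13 and 0.92 in the high RFI line. Here 22 of 24 HF pigs lay above the LF mean, and the difference was 0.44 ± 0.12 (SE), 1.35-fold (limma, adjusted p = 0.0167). Both probes followed each other closely from pig to pig, with a Pearson r of 0.97 after removal of the group means (Spearman rho 0.97, both permutation p at 1e-05, the smallest the 100000 permutations can give; r without the 2 farthest pigs 0.97).

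The third IVD probe, A_72_P713413, was not called. Its lowest, median and highest values with HF were 0.26, 1.16 and 1.54 in the low RFI line and 0.57, 0.81 and 1.19 in the high RFI line. With LF they were -0.15, 0.88 and 1.31 in the low RFI line and 0.24, 0.69 and 1.40 in the high RFI line. The difference was 0.18 ± 0.09 (SE, 95% interval -0.01 to 0.36, limma, adjusted p = 0.225), and 17 of 24 HF pigs lay above the LF mean. It correlated less with the other IVD probes (r = 0.69 with A_72_P715033 and 0.68 with A_72_P796509). The HF low RFI pig of replicate 7 had the lowest value of its group at all 3 probes.

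The size of the diet difference was tested between IVD probes within each pig. This comparison was chosen after the values were seen, so its p-values do not account for that choice. A_72_P796509 gained 0.28 ± 0.09 (SE) more with HF than A_72_P713413 (permutation of diets within line, 100000 resamples, two-sided, p = 0.00206, adjusted over 3 comparisons 0.00618; 21 of 24 HF pigs above the LF mean). For A_72_P715033 against A_72_P713413 the gain was 0.26 ± 0.09 (SE, permutation p = 0.00708, adjusted 0.0106). The called probes differed from each other by 0.02 ± 0.03 (SE, permutation p = 0.593). A further probe, A_72_P709942, is described as IVD in the files but does not carry its name, and it gave -0.01 ± 0.13 (SE, 95% interval -0.28 to 0.26, limma, adjusted p = 0.969). The mean of the 3 named probes was 0.36 ± 0.10 higher with HF (SE, limma, adjusted p = 0.0173).

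Within the first scan date the 2 called probes differed by 0.29 each between diets (limma, adjusted p = 0.174 for A_72_P796509 and 0.208 for A_72_P715033, 12 pigs per diet). Within the second date the differences were 0.62 (adjusted p = 0.0571, called) and 0.58 (adjusted p = 0.132, not called). At A_72_P713413 the differences were 0.04 on the first date and 0.31 on the second (limma, adjusted p = 0.891 and 0.202, not called). HF was higher on both dates at each of these probes, and the difference between dates was not tested.

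**Figure D1:**
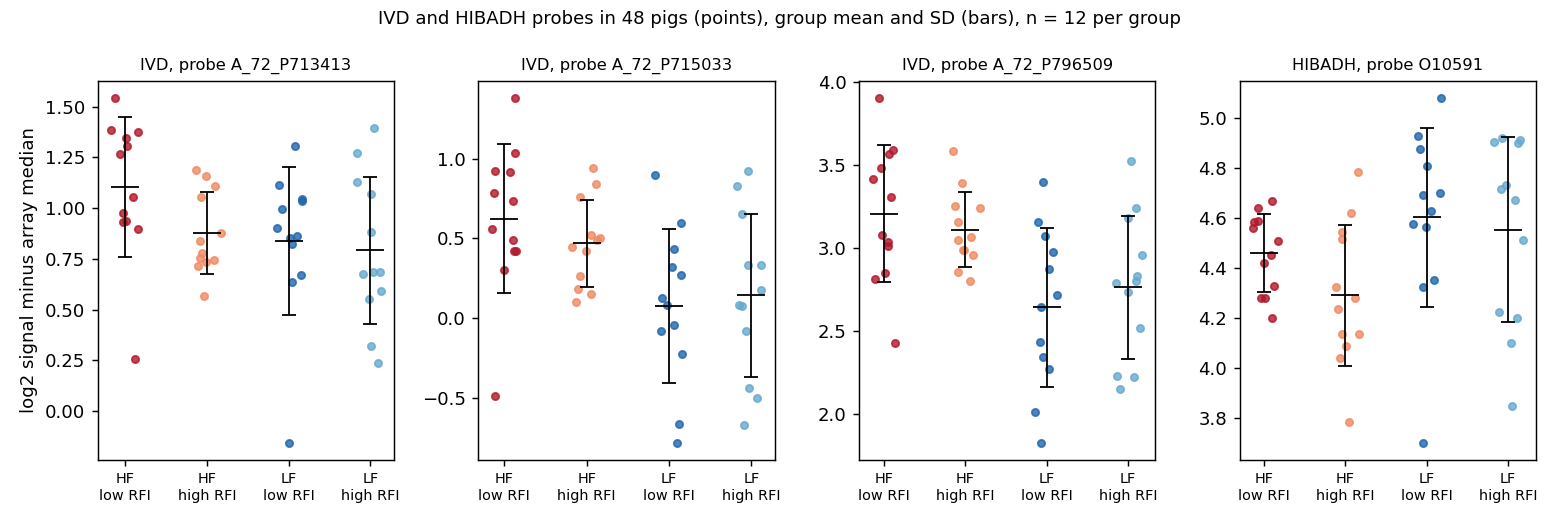
Signal (log2, array median subtracted; each panel has its own axis) of the 3 IVD probes and 1 HIBADH probe in the 4 groups; points are pigs, bars are group mean and SD (n = 12). At A_72_P796509, 23 of 24 HF pigs lie above the LF mean of 2.70, while the HIBADH probe and the first IVD probe overlap more.

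HIBADH, the valine-route dehydrogenase that oxidises 3-hydroxyisobutyrate, had lower values with HF that did not pass the test. At O10591 the lowest, median and highest values with HF were 4.20, 4.48 and 4.67 in the low RFI line and 3.78, 4.26 and 4.78 in the high RFI line. With LF they were 3.70, 4.66 and 5.08 in the low RFI line and 3.85, 4.69 and 4.92 in the high RFI line. The ranges overlapped, with 18 of 24 HF pigs below the LF mean. The difference was -0.20 ± 0.09 (SE, 95% interval -0.38 to -0.03, limma, raw p = 0.0219, adjusted p = 0.119), and at its twin spot A_72_P051436 it was -0.21 ± 0.09 (adjusted p = 0.125). Both spots were called when arrays were weighted by their quality (-0.27 each; limma, adjusted p = 0.00761 and 0.0123) and with the array median signal as a covariate (-0.25 each; adjusted p = 0.0469 and 0.0536). O10591 was also called within the first scan date (-0.30, adjusted p = 0.0748), and its twin spot was not (-0.28, adjusted p = 0.0952). Within the second date the spots were at -0.11 and -0.14 (limma, adjusted p = 0.758 and 0.682, not called). With arrays scaled to the 75th percentile they were at -0.16 and -0.17 (limma, adjusted p = 0.191 and 0.193, not called). A probe of another sequence that is described as HIBADH without carrying its name, A_72_P226822, moved the other way, up by 0.37 ± 0.12 with HF (SE, 95% interval 0.13 to 0.60, limma, adjusted p = 0.0323). Its interval did not overlap those of the named spots, and which of the sequences reads the gene was not tested.

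ALDH6A1, which forms propionyl-CoA late in the valine route, was not called at any of its 3 probes. At A_72_P733498 the group means were 0.93 ± 0.22 and 0.86 ± 0.29 with HF and 1.01 ± 0.31 and 1.001 ± 0.24 with LF (low and high RFI, SD, n = 12). At A_72_P709190 they were 0.53 ± 0.20 and 0.47 ± 0.20 with HF against 0.57 ± 0.22 and 0.56 ± 0.22 with LF. At A_72_P715583 they were -0.90 ± 0.26 and -0.99 ± 0.26 against -0.90 ± 0.31 and -0.91 ± 0.27. The 3 diet differences ran from -0.11 to -0.04 (limma, adjusted p from 0.399 to 0.788), and their 95% intervals reached from -0.26 to 0.12.

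MCCC1, the biotin-bearing subunit of the leucine-route carboxylase, had 1 probe, O857. Its group means were 0.02 ± 0.17 and -0.13 ± 0.29 with HF and -0.14 ± 0.38 and -0.15 ± 0.41 with LF (low and high RFI). The diet difference was 0.09 ± 0.09 (SE, 95% interval -0.09 to 0.28, limma, adjusted p = 0.573).

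BCAT2, the mitochondrial transaminase that opens the pathway, had 3 probes of differing sign by diet, none called. At the brightest, A_72_P342538, lowest, median and highest values with HF were 4.15, 4.56 and 4.996 in the low RFI line and 4.12, 4.50 and 4.77 in the high RFI line. With LF they were 3.51, 4.74 and 5.08 in the low RFI line and 4.11, 4.54 and 5.05 in the high RFI line. All 4 groups overlapped, and the diet difference was -0.09 ± 0.09 (SE, limma, adjusted p = 0.541).

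The BCAT2 probe O9326 had lowest, median and highest values of 2.60, 2.93 and 3.29 in the low RFI line on HF and 2.49, 2.82 and 3.14 in the high RFI line. With LF these were 1.83, 3.001 and 3.28 in the low RFI line and 2.24, 2.89 and 3.29 in the high RFI line, a diet difference of 0.02 ± 0.09 (SE). Probe A_72_P236737 ran from 0.38 to 1.09 (median 0.68) and from 0.31 to 0.96 (median 0.65) with HF, and from 0.37 to 1.06 (median 0.65) and from 0.37 to 1.04 (median 0.67) with LF. Its diet difference was -0.01 ± 0.06 (SE), and the 95% intervals of the 3 probes together reached from -0.27 to 0.19. Between the probes of BCAT2, r over pigs lay between 0.10 and 0.92, with both low values at A_72_P236737. These rose from 0.10 to 0.70 and from 0.30 to 0.79 with slide means removed, and lay between 0.55 and 0.72 within the scan dates. Over all pigs r was at least 0.86 among the probes of BCKDHA, BCKDHB, DBT and HIBADH.

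The E1 and E2 subunits of the dehydrogenase complex were not called for diet. For BCKDHA (E1 alpha), group means at A_72_P441234 were 2.74 ± 0.33 and 2.60 ± 0.22 with HF and 2.88 ± 0.21 and 2.64 ± 0.22 with LF (low and high RFI, SD, n = 12). At A_72_P087911 they were 0.56 ± 0.35 and 0.40 ± 0.38 against 0.66 ± 0.22 and 0.47 ± 0.39, and at its twin spot A_72_P571909 0.62 ± 0.31 and 0.43 ± 0.37 against 0.68 ± 0.24 and 0.46 ± 0.38. The 3 diet differences lay between -0.09 and -0.05 (limma, adjusted p from 0.465 to 0.808).

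BCKDHB (E1 beta) had the largest group SD among the member probes (0.78, at A_72_P676234 in the high RFI line on LF), and 4 of its 5 probes were lower and 1 was higher with HF, none called. At A_72_P693282 the lowest, median and highest values were 2.30, 3.50 and 3.95 in the low RFI line on HF and 2.74, 3.50 and 3.98 in the high RFI line. With LF they were 2.105, 3.57 and 4.04 in the low RFI line and 2.34, 3.83 and 4.18 in the high RFI line. The diet difference there was -0.16 ± 0.14 (SE, 95% interval -0.44 to 0.12, limma, adjusted p = 0.519).

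At A_72_P676234, the BCKDHB probe of opposite sign, the values ran from -0.61 to 1.02 (median 0.41) and from -0.71 to 1.11 (median 0.45) with HF, and from -1.05 to 1.14 (median 0.28) and from -1.06 to 1.52 (median 0.60) with LF. Its diet difference was 0.02 ± 0.17 (SE, 95% interval -0.32 to 0.36). The other 3 BCKDHB probes differed by -0.14 (A_72_P635404), -0.12 (O11931) and -0.08 (A_72_P441239). Their group medians were 3.06, 3.02, 3.18 and 3.41 for A_72_P635404, 2.71, 2.70, 2.80 and 3.13 for O11931, and 0.50, 0.39, 0.47 and 0.71 for A_72_P441239 (HF low, HF high, LF low and LF high RFI). Lowest and highest values over all groups were 1.55 and 3.72, 1.22 and 3.42, and -0.93 and 1.27. Of these medians, the highest at each probe was that of the LF high RFI pigs.

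DBT (E2), the core acyltransferase of the complex, was near even between diets. Group means at A_72_P510905 were 2.37 ± 0.31 and 2.17 ± 0.39 with HF and 2.21 ± 0.25 and 2.24 ± 0.36 with LF, and at A_72_P648259 1.89 ± 0.30 and 1.72 ± 0.43 against 1.73 ± 0.28 and 1.75 ± 0.40 (low and high RFI). The diet differences were 0.04 ± 0.09 and 0.06 ± 0.10 (SE, limma, adjusted p = 0.825 and 0.742). Over all 20 member probes not called for diet, the 95% intervals lay within -0.44 and 0.36.

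**Figure D2:**
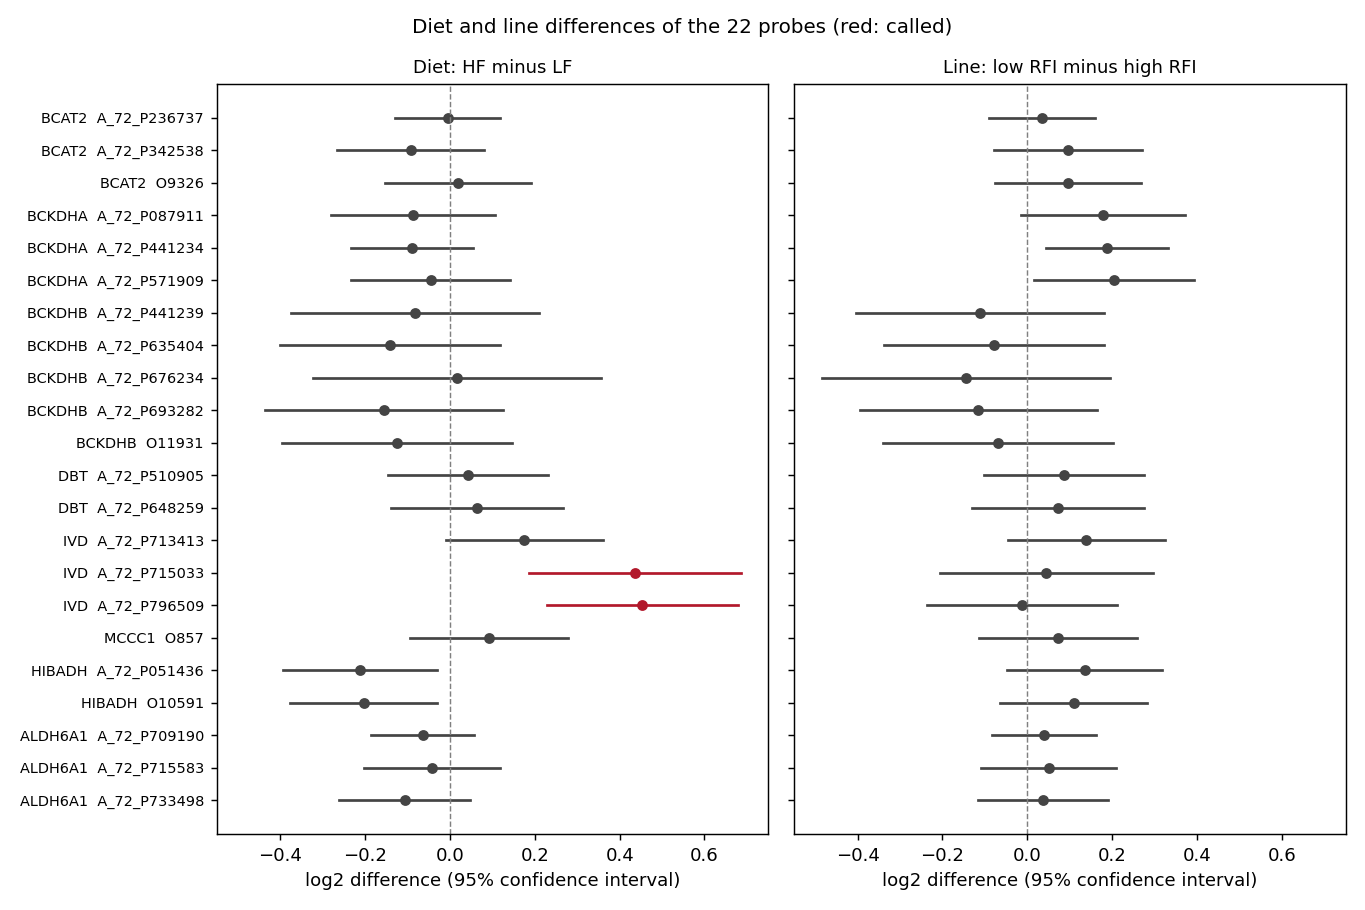
Diet (HF minus LF) and line (low minus high RFI) log2 differences of the 22 member probes, with 95% confidence intervals (limma, 48 pigs); red marks called probes. The 2 red points are IVD probes at 0.44 and 0.45 by diet, and no point is red by line.

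By line, no member was called. None of the 22 probes passed in limma, beside 1.37% of all probes called, and the ordinary analysis of variance also called 0. A raw p under 0.05 was found for 2 of the 22, both of BCKDHA, beside 4600 of all 44356 probes. The estimates of 16 probes lay above 0 and those of 6 below 0 (low minus high RFI, median 0.06), with twin spots and overlapping probes counted separately, and 43.0% of all probes lay below 0 (median 0.01). The probes of BCKDHA differed most: 0.19 ± 0.07 (SE, 95% interval 0.04 to 0.33, limma, raw p = 0.0116, adjusted p = 0.253) at A_72_P441234, and 0.18 ± 0.10 and 0.20 ± 0.09 (adjusted p = 0.553 and 0.407) at the twin spots. At A_72_P441234, 21 of 24 low RFI pigs lay above the high RFI mean. All 5 BCKDHB probes were lower in the low RFI line, from -0.14 to -0.07 (adjusted p from 0.890 to 0.948), so both E1 subunits had estimates of opposite sign, of which none was called. Over all members the 95% intervals for line lay within -0.48 and 0.39.

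No interaction of diet and line was called at any of the 22 member probes (limma, adjusted p = 0.99998 at each, 0 with a raw p under 0.05), nor at any of the 44356 probes (462 with a raw p under 0.05). For IVD A_72_P796509 the diet difference was 0.56 ± 0.16 in the low RFI line (SE, adjusted p = 0.0499, called) and 0.35 ± 0.16 in the high RFI line (adjusted p = 0.305, not called), and these differed by 0.22 ± 0.22 (SE, 95% interval -0.23 to 0.66), and the difference did not pass the test. At A_72_P715033 the diet differences were 0.55 ± 0.18 (adjusted p = 0.0906) and 0.33 ± 0.18 (adjusted p = 0.412). In all, 1 member probe was called within the low RFI line and 0 within the high RFI line (2 with a raw p under 0.05), beside 3.04% and 1.66% of all probes called. In the high RFI line 6170 of all 44356 probes had a raw p under 0.05. Over the alternative settings the count ran from 0 to 2 in the low RFI line and from 0 to 1 in the high RFI line. The interaction interval was narrowest at ALDH6A1 A_72_P709190 (-0.19 to 0.29) and widest at BCKDHB A_72_P676234 (-0.47 to 0.89).

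The list of other genes of the pathway held 26 genes (regulators and E3 of the complex, the remaining enzymes of the 3 routes, propionate enzymes and transporters), and 23 were measured. By diet 2 of the 23 were called, beside 12.6% of all genes, with a median difference of -0.07. PPM1K, the phosphatase that activates the complex, was 0.27 ± 0.08 higher with HF (SE, 1.20-fold, limma, adjusted p = 0.0173). HIBCH, the valine-route hydrolase that acts just before HIBADH, was lower with HF, at -0.22 ± 0.07 (SE, limma, adjusted p = 0.0293). Neither was called within a single scan date. HIBCH also lost its call with array position as a block (-0.21, limma, adjusted p = 0.108) and was not tested in the deposited table, while the PPM1K difference was 0.16 after normexp background correction and was still called. BCKDK, the opposing kinase, had no probe of its name, and a probe that is only described as BCKDK gave -0.12 ± 0.06 (SE, adjusted p = 0.152, not called).

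DLD, the E3 subunit that the complex shares with pyruvate dehydrogenase, was read by 10 probes. All 10 were lower with HF, from -0.33 to -0.11, and 7 had a raw p under 0.05, but none was called (limma, adjusted p from 0.0779 to 0.606). Of all 44356 probes, 55.8% were lower with HF and 11322 had a raw p under 0.05. The brightest, A_72_P165436, gave -0.20 ± 0.09 (SE, adjusted p = 0.125). It was called with array weights (-0.25, adjusted p = 0.0154) and with the array median as a covariate (-0.29, adjusted p = 0.0140). The 10 probes read 1 gene in the same pigs and are no replicates of each other.

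The other 20 genes of the list were not called for diet, from -0.23 for ACAA2 to 0.23 for MMAA (a factor of the methylmalonyl-CoA mutase). Of the leucine route, AUH was at -0.15. Of the isoleucine route, ACADSB was at -0.01 and HSD17B10 at -0.09. The valine-route dehydrogenase ACAD8 was at 0.12. By line none of the 23 was called in limma, beside 1.14% of all genes. A raw p under 0.05 was found for 3 of the 23, beside 1138 of all 11117 genes. The 3 were ACAA2 (0.35), OXCT1 (0.19) and HADHA (0.13), all higher in the low RFI line.

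**Figure D3:**
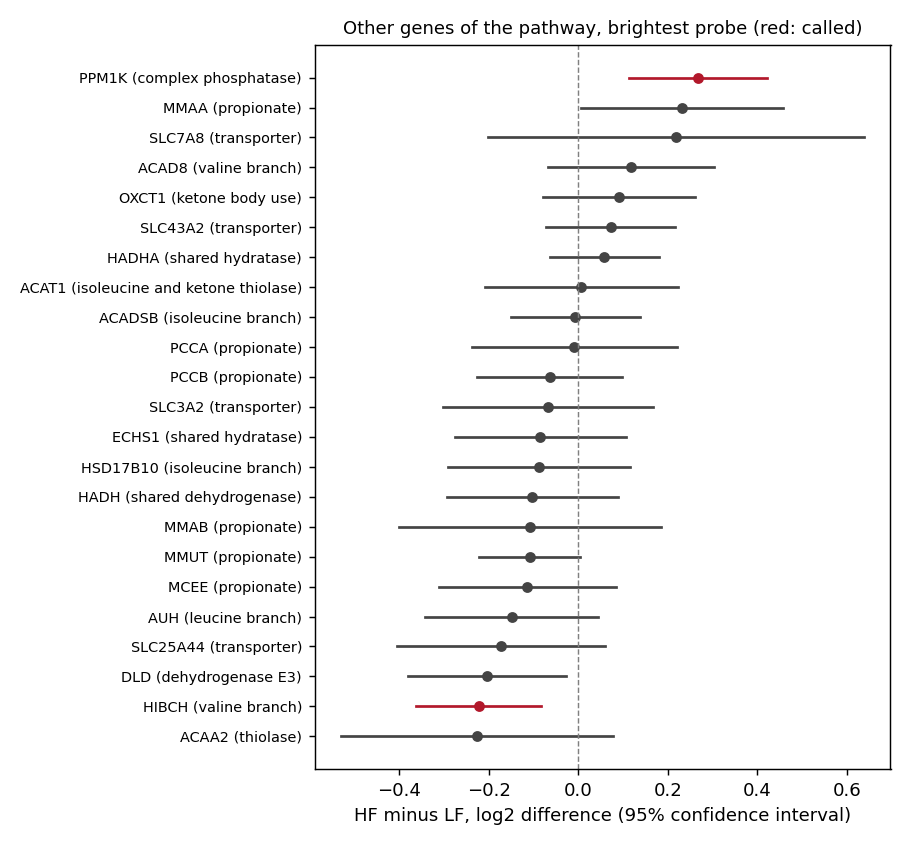
Diet difference (HF minus LF, log2, with 95% confidence interval; limma, 48 pigs) of the 23 other measured genes of the pathway at their brightest probe, ordered by size; red marks called genes. PPM1K at 0.27 and HIBCH at -0.22 are the called genes, and most others cross 0.

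Pairs of members were positively correlated from pig to pig. After the group means were removed, all 28 pairs of the 8 genes (brightest probe) had a Pearson r above 0, with a median of 0.39, and 18 pairs were called by Pearson r and 13 by Spearman rho (permutation test, 100000 resamples, two-sided, adjusted over the 28 pairs). Among all pairs of the 11117 genes the median r was 0.01, and 51.0% of pairs had r above 0. The smallest r among the 18 called pairs was 0.35, a value reached by 12.1% of all pairs, or 21.9% when negative r of that size are included. The strongest were BCKDHB with HIBADH (r = 0.68, rho = 0.65, both adjusted p at most 0.00014), BCKDHB with MCCC1 (r = 0.66, adjusted p = 7e-05; rho = 0.46, adjusted p = 0.00404), BCKDHB with DBT (r = 0.66, rho = 0.66) and BCAT2 with HIBADH (r = 0.65, rho = 0.56). These 4 held without the 2 farthest pigs (r = 0.59, 0.47, 0.66 and 0.51) and on each scan date (r from 0.42 to 0.78).

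Of the 7 pairs of IVD, only those with BCAT2 (r = 0.47, rho = 0.44, adjusted permutation p = 0.00171 and 0.00566) and DBT (r = 0.38, rho = 0.36, adjusted permutation p = 0.0157 and 0.0296) were called. For IVD with DBT, r was 0.17 and 0.31 within the scan dates and 0.23 with slide means removed. ALDH6A1 was called with BCAT2 and MCCC1 only. BCKDHA and BCKDHB, which form the E1 tetramer, correlated at r = 0.53 (rho = 0.53, adjusted permutation p = 0.00032 and 0.00098), with 0.31 and 0.33 within the dates and 0.34 with slide means removed. Among the called pairs, 17 of 18 kept their sign within both dates. The exception was MCCC1 with HIBADH (r = 0.35 and rho = 0.15 over all pigs, -0.20 on the first date and 0.54 on the second). Of the called pairs, 4 fell by over 1.5 times without the 2 farthest pigs. These were BCAT2 with MCCC1 (r from 0.40 to 0.06, rho = 0.14), MCCC1 with HIBADH (from 0.35 to 0.11), BCAT2 with ALDH6A1 (from 0.44 to 0.25) and MCCC1 with ALDH6A1 (from 0.44 to 0.27, rho = 0.30, adjusted permutation p for rho 0.0695).

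**Figure D4:**
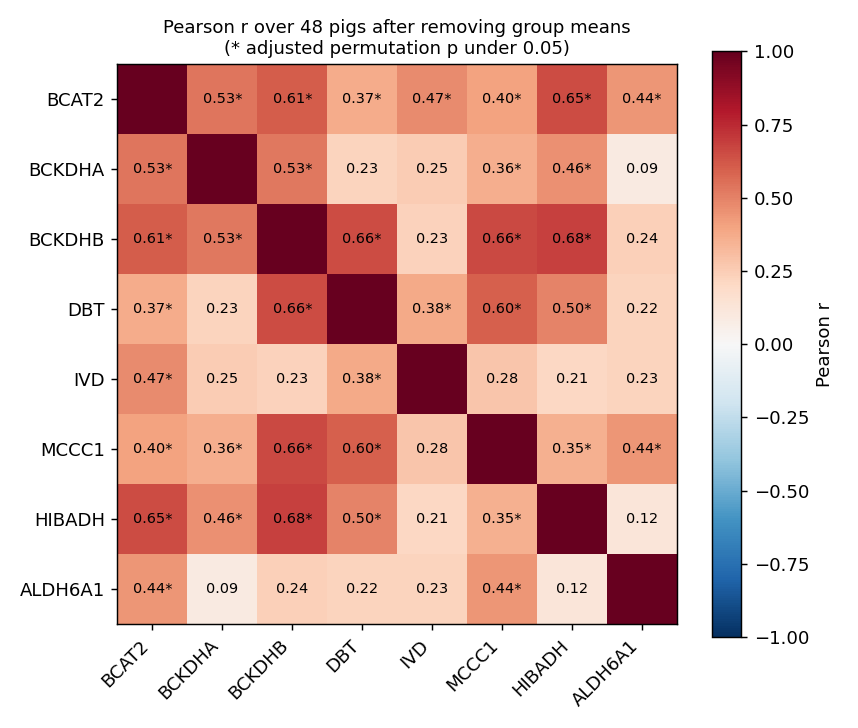
Pearson r between the 8 member genes over 48 pigs after removing group means; colour and number give r, and an asterisk marks an adjusted permutation p under 0.05. The 3 values among BCKDHB, HIBADH and DBT lie between 0.50 and 0.68, and the lowest value is that of ALDH6A1 with BCKDHA, at 0.09.

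The members were positively correlated with the level of adipocyte markers. With the mean of the 9 measured adipocyte markers (group means removed), all 8 members had r above 0, from 0.27 for IVD to 0.65 for HIBADH, and 7 of 8 had an adjusted permutation p under 0.05 by Pearson r and 4 by Spearman rho (24 relations of 8 members with 3 marker lists, chosen after earlier values were seen). Over all other genes the median r with this list was 0.06, and 20.8% reached the smallest called value of 0.31. Without the 2 farthest pigs the members' r lay between 0.10 (IVD) and 0.53 (BCKDHB). BCKDHA fell from 0.31 to 0.17 and BCAT2 from 0.50 to 0.28, and on the first date BCKDHA was at -0.11. For HIBADH, r was 0.65 (rho = 0.48, adjusted permutation p = 0.00012 and 0.00326), 0.48 without the 2 farthest pigs, and 0.26 and 0.80 on the dates. With the 9 skeletal muscle markers all 8 had r below 0, from -0.61 for BCKDHB to -0.15 for ALDH6A1, and 4 of 8 passed by Pearson r and 4 by Spearman rho. IVD (-0.32, rho = -0.30) passed by r only (adjusted permutation p = 0.0425 and 0.0797) and BCKDHA (-0.31, rho = -0.34) by rho only (0.0512 and 0.0421). Of all other genes, 10.9% lay as far below 0 as IVD. The sign was not stable: on the first scan date 6 of 8 members had r above 0, the highest being BCAT2 at 0.48, ALDH6A1 at 0.37 and IVD at 0.31, and only BCKDHB (-0.12) and MCCC1 (-0.51) lay below. ALDH6A1 was also above 0 without the 2 farthest pigs (0.08) and by Spearman rho (0.05). In bulk tissue, fewer cells of a type and less RNA per cell cannot be told apart, and the part of these marker levels in the correlations was not tested.

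With the mean of the 9 macrophage markers, 7 of 8 members had r below 0, and 4 of 8 passed by Pearson r and 2 by Spearman rho. On the first scan date 3 members lay above 0, HIBADH at 0.37, BCKDHA at 0.11 and BCKDHB at 0.09, and HIBADH was also above 0 without the 2 farthest pigs (0.08). Over all other genes the median r was -0.05, and 7.265% lay as far below 0 as the weakest of the 4 (DBT, -0.31, rho = -0.27, adjusted permutation p = 0.0488 and 0.104). MCCC1 had -0.36 (rho = -0.27, adjusted permutation p = 0.0248 and 0.104). Without the 2 farthest pigs these were -0.22 for DBT and -0.23 for MCCC1. For ALDH6A1 the value was largest in size. Over the 48 pigs its r with this list was -0.63 (rho = -0.63, adjusted permutation p = 0.00012 and 0.00024), -0.54 without the 2 farthest pigs, and -0.67 and -0.59 on the dates. IVD had -0.40 (rho = -0.40, adjusted permutation p = 0.0123 and 0.0177), -0.34 without the 2 farthest pigs, and -0.50 and -0.39 on the dates.

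Between diets the estimates for all 9 skeletal muscle markers lay below 0 (HF minus LF, median -0.22, lowest MYLPF at -0.51), none called, and the mean of the list spanned -1.71 to 1.26 with HF and -1.66 to 1.77 with LF. Of all genes, 62.3% lay below 0 by diet (median -0.04) and 12.6% were called. Of the adipocyte markers 6 of 9 were lower (median -0.06), with LEP called (-0.67; limma, adjusted p = 0.00508), and the list spanned 5.79 to 6.53 with HF and 5.88 to 6.73 with LF. None of the 9 macrophage markers was called (median 0.04). Estimates above 0, the direction of IVD, were found for 6 of these 9, for 4 of 6 lymphocyte markers and for 2 of 5 endothelium markers. Of the 6 fibroblast and progenitor markers 5 had an estimate above 0, the direction of IVD (median 0.18), and PDGFRA was called (0.31 higher with HF, limma, adjusted p = 0.0671). The mean of that list spanned 5.39 to 6.29 with HF and 5.14 to 6.59 with LF. The part of these lists in the IVD difference was not tested.

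The genes whose values followed the members with the smallest adjusted p by diet most closely over the 48 pigs, among 11116 other genes, are given as a description. For IVD they were C1ORF51 (r = 0.69), DTNBP1 (0.65) and EXOC7 (0.64). For HIBADH they were CLYBL (0.86), PRDX3 (0.86) and GCM1 (0.86). For ALDH6A1 they were RPS6KB1 (0.73), ELL2 (0.72) and TBX15 (0.70). The points are pigs, with group means removed, and slides are shared. With slide means also removed, r lay between 0.58 and 0.86.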

How the data were processed

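RNA of SCAT from 48 pigs was labelled with Cy3 and hybridised to a custom porcine 8 x 60 K Agilent array. The scanner files deposited by the authors (Agilent Feature Extraction 10.7.3.1) hold intensity values per spot, and the deposited table of log2 values, which the authors filtered and centred on each array's median (R 2.10.0), holds 38987 probes. It equalled the centred log2 median signal and served as an alternative, with 20 of the 22 member probes in it. Here log2 of the processed signal (background-subtracted intensity) was taken, outlier spots were set missing, a probe had to be well above background on 9 of 12 arrays of a group, and the array median was subtracted. Diet, line and interaction were fitted with limma 3.58.1 (lmFit, eBayes with trend, two-sided; R 4.3.3), tested on simulated data, with p-values adjusted over all probes, or over all genes at the brightest probe. Correlations over pigs used permutation tests (Python 3.11.15, scipy 1.17.1).

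The array number limits the precision. Members and lists were chosen with earlier results of these data known. The rule named all member probes, other pathway genes that were called, BCKDK, PPM1K and DLD, and the 3 genes most correlated with each of 3 members. Further pathway genes and the markers LEP, PDGFRA and MYLPF were named after their values were seen. Probes recognised by description only were added after the files were seen. Genome positions were not used here, since the array annotation lists the probes as unmapped, and the place of a probe in coding or untranslated sequence was not checked. A further gene of the pathway is not reported here.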

Additional observations from a re-analysis of the deposited data

Results flagged for a closer look

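A probe that the comparisons of named probes did not use, A_72_P226822, carried a diet difference: it is described as HIBADH without bearing the name, and its signal was 0.37 higher with HF (limma, adjusted p = 0.0323, n = 24 pigs per diet). It was well above background on all 24 arrays with HF, and with LF on 10 of 12 arrays of the low RFI line and on 12 of 12 of the high RFI line. The named HIBADH spots were at -0.20 and -0.21.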

How the results depend on the processing

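With 19 alternative settings for member probes, 15 gave 2 called by diet. The count was 4 with array weights or the array median as a covariate, through HIBADH. Within each scan date (24 pigs instead of 48) it was 1. That probe was HIBADH O10591 on the first date, where no IVD probe was called, and IVD A_72_P796509 on the second. By genes the count was 2 with those same weights or covariate. The called IVD probes kept their direction in all 38 refits and their call in 35, from 0.29 to 0.62 (adjusted p from 9.71e-05 to 0.208), the 3 lost calls being within a scan date. By line and interaction 0 member probes were called in every setting. Beside the replicate block below, the within-line diet counts moved in these settings: in low RFI pigs 2 with the 75th percentile, slide, scan date, weights or covariate, and 0 with array position or within either date; in high RFI pigs 1 with weights. Other pathway genes called by diet were 5 with the covariate, 1 in the deposited table, where HIBCH was not tested, or with array position, where HIBCH lost its call, and 0 within either date; by line 1 was called within the first date or with the mean of all probes. Of the 28 pairs of members, 18 were called as correlated, against 20 with slide means removed, 17 after quantile normalization and 13 by Spearman rho. Of the probes not called, 11 of 20 by diet changed sign in at least 1 setting, each by less than 2 SE, as did 6 of 22 by line; no called value changed sign. Of all probes called by diet, 57.0% were lower with HF, but 32.8% with the 75th percentile and 49.5% after quantile normalization. Leaving out the 1 or the 4 arrays with the fewest probes above background, settings chosen after seeing the data, left 2 member probes called.

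Equal replicate numbers share a slide. The mean correlation of equally numbered pigs ran from 0.01 to 0.37, above 0.1 for 9 of 12 numbers, beside 0.09 for other numbers on a slide and -0.02 across slides, and for 17 of 48 arrays the best correlated array of another group had the same number, a hint from the data of a shared number. Since 3 numbers were not above 0.1, with a lowest single value of -0.19, they were not taken as pairs. With the replicate number as a block, 2 member probes were called by diet (IVD, adjusted p = 9.71e-05 and 0.000265), 2 in low RFI pigs and 1 in high RFI pigs, and the other counts did not change.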
